A study of Homo sapiens with 12 samples.

Results

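NFE2, TIFAB, PTPRCAP, FUT7, GAPT and CXorf21 are 6 genes of blood cells that had lower normalized read counts in HL60 cells with induced TFEB than in each of 3 control groups. They were picked by name for that pattern from a deposited table of 57820 genes, so their differences between the induced cells and the controls are given as a description, with no test. HL60 is an established human acute myeloid leukaemia line whose cells resemble promyelocytes, the granule-forming precursors of neutrophils. Each of 4 groups held 3 libraries, from separate biological experiments per the series description. TFEB-Dox was the line transduced with pRRL-TFEBS211A-puro and given doxycycline, which switches on a serine-to-alanine form of TFEB. TFEB-Veh was the same line with vehicle. EV-Dox and EV-Veh were cells transduced with the empty vector pRRL-EV-puro and given doxycycline or vehicle. All 4 groups thus share the HL60 background and a transduced vector, and the labels do not say whether each line was a pool or 1 clone. The protocol gives doxycycline at 1 µg/ml for 48 h, and lists it for the vehicle samples as well, so the treatment of each sample was taken from its title and treatment label.

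TFEB is the transcription factor best known for switching on lysosome and autophagy genes, which it does at promoter sites with the letters CACGTG. The 6 genes belong to other pathways of blood cells. NFE2 encodes the blood-restricted subunit of NF-E2, a transcription factor that pairs it with a small MAF protein and is known for platelet formation and for globin and heme genes. TIFAB encodes a relative of the adaptor TIFA that restrains signalling through TRAF6. CXorf21, now named TASL, encodes the adaptor that sits with the transporter SLC15A4 on endolysosomes and couples endosomal Toll-like receptors to IRF5. PTPRCAP encodes a membrane protein bound to the leukocyte phosphatase CD45, and GAPT a membrane adaptor that binds GRB2. FUT7 encodes the fucosyltransferase that completes sialyl Lewis X on the ligands by which leukocytes roll on selectins.

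The values are reads divided by 1 factor per library, and are called normalized read counts here. TFEB itself (ENSG00000112561.13) averaged 18189 ± 4127 in TFEB-Dox, 124 ± 22.6 in TFEB-Veh, 96.7 ± 25.9 in EV-Dox and 145 ± 45.3 in EV-Veh (SD, n = 3 each), so the targeted gene was high in the 3 libraries labelled TFEB-Dox and in no others, with reads of the introduced and the cells' own TFEB in 1 value. The libraries held 4474010 to 22488000 recovered reads. After the authors' scaling the summed values still averaged 18181800 ± 3209460 in TFEB-Dox, 10177500 ± 2720460 in TFEB-Veh, 7097590 ± 2961630 in EV-Dox and 15335000 ± 6212310 in EV-Veh. EV-Dox replicate 3 had the lowest sum, 4012760, and EV-Veh replicate 2 the highest, 22302100. Mitochondrial genes took 16.0 ± 2.38% of the reads in TFEB-Dox, 26.6 ± 2.82% in TFEB-Veh, 30.4 ± 3.70% in EV-Dox and 23.8 ± 2.77% in EV-Veh. The part of these differences in the results below was not tested. The main values of the 6 genes are therefore also given in RPM or with the expressed-gene scaling. RPM is the usual measure in which each library's recovered reads are set to the same total. In the expressed-gene scaling, libraries were scaled on nuclear genes with reads in every library, out of the 7290 that averaged at least 200. Values of other genes are on the deposited scale unless stated. The median difference over all 23128 tested genes shows how far that choice moves everything. With the deposited and the expressed-gene scaling it was -0.0017 and -0.72 on the log2 scale for TFEB-Dox minus TFEB-Veh, and 0.073 and -1.26 for TFEB-Dox minus EV-Dox. For TFEB-Dox minus EV-Veh it was 0.013 and -0.077, and for EV-Dox minus EV-Veh -0.19 and 1.05. In bulk RNA, fewer cells of a kind and less RNA of a gene per cell cannot be told apart.

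On the deposited scale group means of all 6 genes ran in 1 order, with TFEB-Dox lowest, then EV-Dox, then TFEB-Veh, and EV-Veh highest. The summed values of the 3 control groups ran in that order too. In RPM 5 of 6 genes kept it, and the share of all genes with this order was not computed. A TFEB-Dox mean below each control mean was what chose the genes, and 29.5% of all tested genes had it, or 65.7% in RPM. The 3 TFEB-Dox libraries lay below all 9 control libraries for 4 of the 6 genes, NFE2, TIFAB, PTPRCAP and GAPT, against 2.95% of all tested genes. FUT7 and CXorf21 overlapped 1 control library, EV-Dox replicate 3, and without that library the count was 6 of 6. In RPM, the TFEB-Dox libraries lay below all 9 control libraries for 6 of 6 genes, and so did those of 21.4% of all tested genes. By limma, 4.66% of all tested genes were called lower in TFEB-Dox than in TFEB-Veh, 5.37% lower than in EV-Dox, 8.51% lower than in EV-Veh and 1.35% lower than in each of the 3. The choice of the genes used these contrasts, so nothing is read from them for the 6. Of 23128 genes ranked by TFEB-Dox minus TFEB-Veh, NFE2 was 2nd from the lowest, TIFAB 7th, PTPRCAP 9th, FUT7 11th, GAPT 13th and CXorf21 14th. By TFEB-Dox minus EV-Dox, GAPT was 6th, NFE2 8th, PTPRCAP 38th, FUT7 155th, CXorf21 257th and TIFAB 534th. Low ranks follow from the choice and are a description only.

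**Figure D1:**
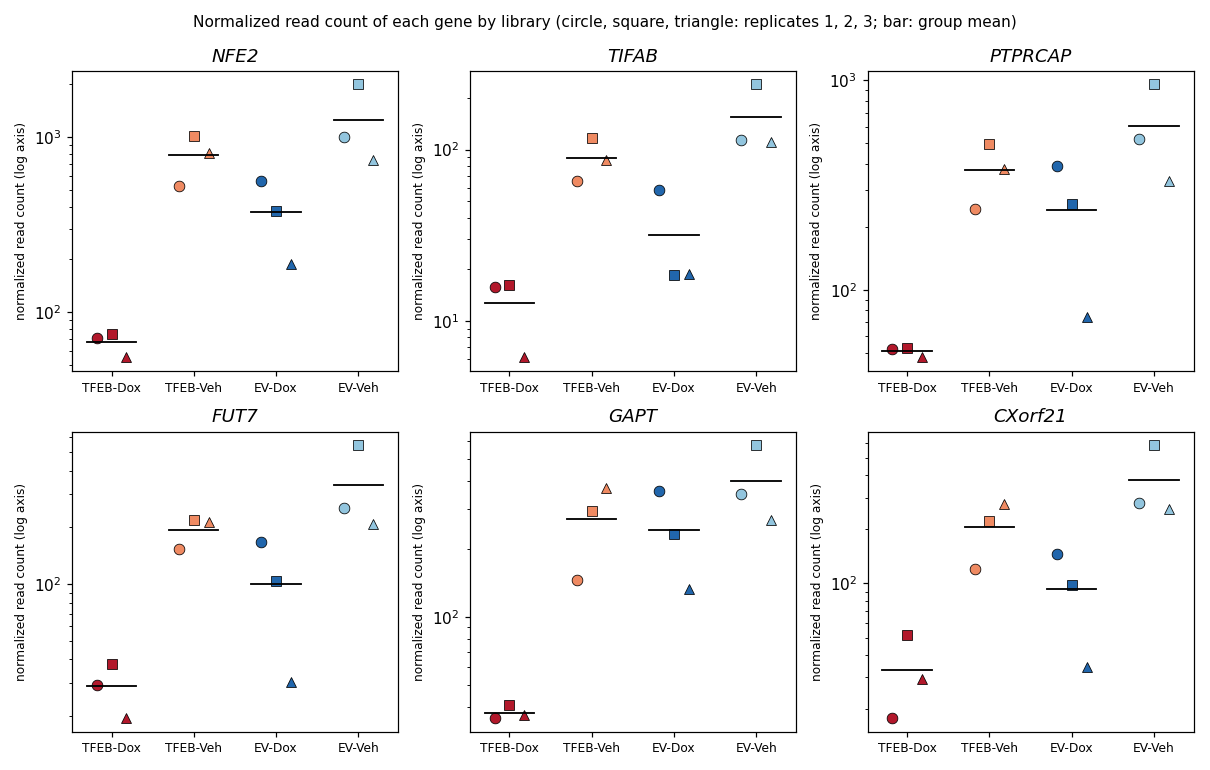
Normalized read count of each gene in the 12 libraries, on log axes, with TFEB-Dox at the left and EV-Veh at the right of each panel and a bar at each group mean. NFE2 lies between 55.0 and 75.3 in TFEB-Dox and between 188 and 2001 in the controls, and EV-Veh replicate 2 is the highest library in each panel.

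NFE2 (ENSG00000123405.9) had normalized read counts of 71.3, 75.3 and 55.0 in TFEB-Dox replicates 1 to 3, against 523, 1016 and 817 in TFEB-Veh, 558, 377 and 188 in EV-Dox and 1004, 2001 and 737 in EV-Veh. The 3 TFEB-Dox libraries sat close together and the lowest control, EV-Dox replicate 3, was 2.501 times the highest of them. NFE2 averaged 67.2 ± 10.7 in TFEB-Dox, 785 ± 248 in TFEB-Veh, 375 ± 185 in EV-Dox and 1248 ± 666 in EV-Veh (SD, n = 3 each). On the log2(value + 1) scale, on which all differences are given, the difference of means was -3.49 against TFEB-Veh, -2.34 against EV-Dox and -4.08 against EV-Veh. These are the largest of the 6 genes against TFEB-Veh and EV-Veh, and GAPT has the largest against EV-Dox. In RPM, NFE2 averaged 3.74 ± 0.700 in TFEB-Dox, 77.1 ± 12.3 in TFEB-Veh, 51.5 ± 4.66 in EV-Dox and 78.7 ± 9.78 in EV-Veh. On that scale the lowest control library was 10.3 times the highest TFEB-Dox library, and the TFEB-Veh and EV-Veh libraries overlapped.

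TIFAB (ENSG00000255833.1) had normalized read counts of 15.7, 16.1 and 6.12 in TFEB-Dox, against 65.8, 117 and 86.4 in TFEB-Veh, 57.7, 18.5 and 18.8 in EV-Dox and 114, 240.0 and 111 in EV-Veh. TFEB-Dox did not overlap the controls, but EV-Dox replicates 2 and 3 stood only just above the TFEB-Dox libraries, the lowest control being 1.14 times the highest TFEB-Dox library. TIFAB rested on 15, 15 and 5 reads in TFEB-Dox, with exact 95% Poisson intervals of 8.40 to 24.7, 8.40 to 24.7 and 1.62 to 11.7 reads, and on 68, 22 and 21 reads in EV-Dox. In EV-Dox replicates 2 and 3 the intervals ran from 13.8 to 33.3 and from 13.0 to 32.1 reads, and all these intervals cover counting error only. The log2 difference was -2.80 against TFEB-Veh, -1.16 against EV-Dox and -3.52 against EV-Veh. In RPM, TIFAB averaged 0.700 in TFEB-Dox, 8.93 in TFEB-Veh, 4.34 in EV-Dox and 10.0 in EV-Veh, with the lowest control library 2.504 times the highest TFEB-Dox library.

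CXorf21 (ENSG00000120280.5), the partner of SLC15A4, had normalized read counts of 17.8, 51.6 and 29.4 in TFEB-Dox, against 119.6, 223 and 275 in TFEB-Veh, 145, 98.1 and 34.1 in EV-Dox and 281, 586 and 259.6 in EV-Veh. EV-Dox replicate 3 lay between TFEB-Dox replicates 3 and 2, so the groups overlapped in that 1 control library. Spread within TFEB-Dox was the widest of the 6 genes for CXorf21, with an SD of 52.2% of the mean. Its log2 difference was -2.65 against TFEB-Veh, -1.36 against EV-Dox and -3.50 against EV-Veh. In RPM CXorf21 averaged 1.74 in TFEB-Dox, 19.8 in TFEB-Veh, 12.2 in EV-Dox and 24.1 in EV-Veh. No library overlapped on that scale, where the lowest control was 3.59 times the highest TFEB-Dox library.

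PTPRCAP (ENSG00000213402.2), the partner of CD45, had normalized read counts of 52.4, 52.7 and 47.7 in TFEB-Dox, against 244, 497 and 378 in TFEB-Veh, 389, 257 and 74.4 in EV-Dox and 524, 956 and 331 in EV-Veh. The TFEB-Dox libraries had an SD of 5.51% of their mean, or 16.2% in RPM. They rested on 50, 49 and 39 reads, whose exact 95% Poisson intervals ran from 27.7 to 65.9 reads together. EV-Dox replicate 3 was far under its 2 companions and 1.41 times the highest TFEB-Dox library. The log2 difference of PTPRCAP was -2.79 against TFEB-Veh, -1.92 against EV-Dox and -3.41 against EV-Veh. In RPM it averaged 2.85 in TFEB-Dox, 36.5 in TFEB-Veh, 30.9 in EV-Dox and 38.0 in EV-Veh.

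GAPT (ENSG00000175857.4), the GRB2-binding adaptor, had normalized read counts of 35.6, 40.9 and 36.7 in TFEB-Dox, against 145, 295 and 372 in TFEB-Veh, 361, 232 and 134 in EV-Dox and 350.05, 577 and 270.2 in EV-Veh. GAPT kept the widest gap of the 6 genes on the deposited scale, its lowest control library being 3.27 times its highest TFEB-Dox library, and the 3 control groups overlapped one another. Its log2 difference was -2.71 against TFEB-Veh, -2.54 against EV-Dox and -3.30 against EV-Veh. In RPM GAPT averaged 2.10 ± 0.203 in TFEB-Dox, 25.7 ± 5.01 in TFEB-Veh, 33.7 ± 2.44 in EV-Dox and 26.1 ± 0.190 in EV-Veh. GAPT is the 1 gene of the 6 whose mean in RPM was highest in EV-Dox.

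FUT7 (ENSG00000180549.7), the selectin-ligand fucosyltransferase, had normalized read counts of 29.3, 37.7 and 19.6 in TFEB-Dox, against 154, 218 and 213 in TFEB-Veh, 167, 104 and 30.5 in EV-Dox and 254, 544 and 208 in EV-Veh. EV-Dox replicate 3 lay inside the TFEB-Dox range, and the other 8 control libraries lay above it. The log2 difference of FUT7 was -2.74 against TFEB-Veh, -1.51 against EV-Dox and -3.41 against EV-Veh. In RPM it averaged 1.58 in TFEB-Dox, 19.5 in TFEB-Veh, 12.9 in EV-Dox and 21.2 in EV-Veh, and the lowest control library was 4.07 times the highest TFEB-Dox library.

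**Figure D2:**
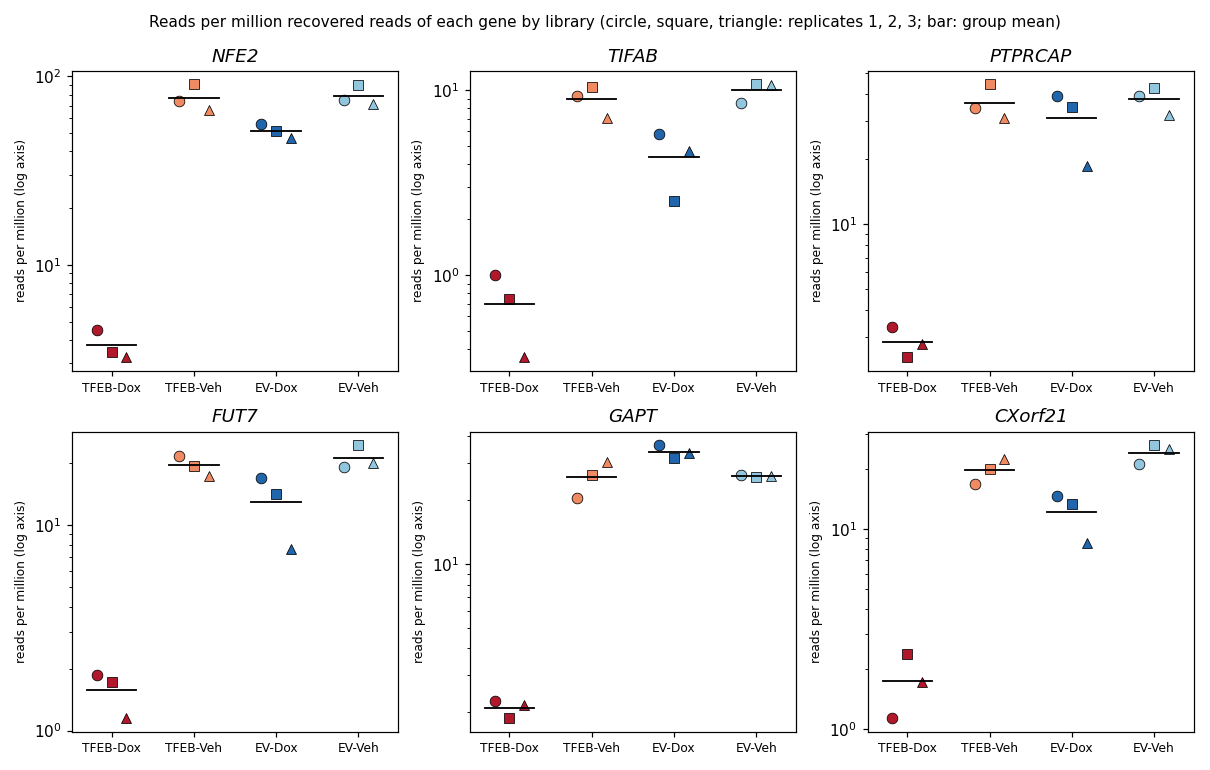
RPM (library-scaled recovered reads) of each gene in the 12 libraries, on log axes, with a bar at each group mean. The TFEB-Dox libraries lie below all 9 control libraries in 6 of 6 panels, NFE2 reaching 4.54 in TFEB-Dox and no lower than 46.9 in the controls.

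Scaling on expressed genes left the signs of all 6 genes as they were and moved the sizes. NFE2 then differed by -4.23 against TFEB-Veh, -3.71 against EV-Dox and -4.16 against EV-Veh. GAPT differed by -3.45, -3.90 and -3.37 against the same groups, and PTPRCAP by -3.53, -3.28 and -3.49. TIFAB and CXorf21 had the smallest differences from EV-Dox on this scale, -2.47 and -2.71. Over the 5 scalings tried, the 6 genes were lower in TFEB-Dox than in each control group in every case. The difference between the doxycycline effect in the TFEB line and that in the EV line, the interaction of vector and doxycycline, was below 0 for 6 of 6 genes under those 5 scalings. Its median over all tested genes was 0.31 with the deposited and -1.67 with the expressed-gene scaling, where 13376 of 23128 genes were called lower, so that nothing is read from the sign alone. It ran from -1.95 for GAPT to -0.44 for TIFAB with the deposited scaling and from -3.97 for GAPT to -2.40 for TIFAB with the expressed-gene scaling, and 35.4% of all tested genes were called for it in either direction with the deposited scaling.

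**Figure D3:**
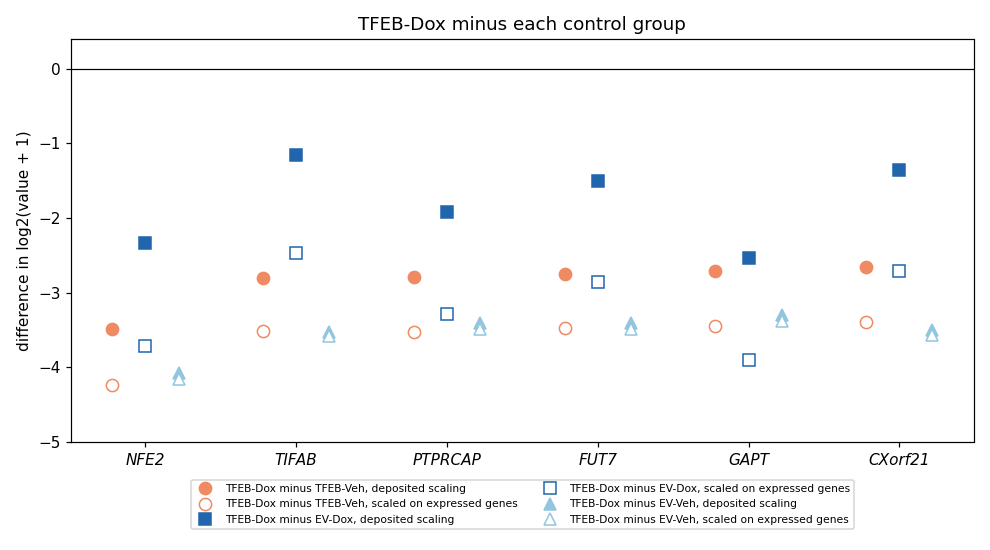
Difference of TFEB-Dox minus TFEB-Veh, EV-Dox and EV-Veh for each gene on the log2(value + 1) scale, with filled symbols for the deposited scaling and open symbols for the expressed-gene scaling. The differences from EV-Dox move most between scalings, for NFE2 to -3.71 with the expressed-gene scaling, against -2.34 with the deposited one.

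Promoters were read for the genes that RefSeq's table for GRCh38.p14 holds, 4 of the 6, as 250 bases before to 50 bases after the transcription start. They are at chr5:135452302-135452601 on the minus strand for TIFAB, chr9:137032039-137032338 on the minus strand for FUT7, chr5:58491185-58491484 on the plus strand for GAPT and chrX:30577717-30578016 on the minus strand for CXorf21. The TFEB-binding letters CACGTG, searched on both strands, were in 0 of these 4 promoters and in 7.26% of all 35116 promoters. The core of NF-E2 and AP-1 sites, TGANTCA, was in 0 of 4 and in 7.71% of all. GAGGAA, the purine core read by ETS factors such as the myeloid factor PU.1, was in 2 of 4 and in 27.9% of all. The promoters that hold it are shown 5′ to 3′ along the gene's strand, with the match in capitals. In TIFAB it begins 203 bases before the start, and in GAPT it begins 58 bases before the start, on the other strand and so read as TTCCTC, and again 27 bases after it.
TIFAB: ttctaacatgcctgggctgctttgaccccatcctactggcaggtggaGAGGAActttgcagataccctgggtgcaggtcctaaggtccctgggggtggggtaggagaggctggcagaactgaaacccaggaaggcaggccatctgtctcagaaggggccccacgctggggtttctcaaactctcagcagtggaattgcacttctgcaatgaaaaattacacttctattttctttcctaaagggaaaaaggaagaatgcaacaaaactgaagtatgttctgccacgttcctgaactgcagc
GAPT: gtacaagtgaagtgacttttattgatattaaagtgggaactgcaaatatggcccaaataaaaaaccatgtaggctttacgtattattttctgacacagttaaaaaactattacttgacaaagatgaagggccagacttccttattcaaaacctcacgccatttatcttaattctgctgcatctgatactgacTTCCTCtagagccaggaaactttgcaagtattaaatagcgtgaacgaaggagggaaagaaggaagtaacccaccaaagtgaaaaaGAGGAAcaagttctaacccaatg
A match describes these letters in this window and is not a shown binding site. NFE2 and PTPRCAP are named only.

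Doxycycline in the EV line was a comparison that did not choose the genes, although its libraries also served as their controls. With the deposited scaling 5 of the 6 genes were called lower in EV-Dox than in EV-Veh by limma (Benjamini-Hochberg adjusted over all tested genes), and 23.3% of all tested genes were called lower and 3.39% higher. TIFAB had the largest change of the 6, -2.37 ± 0.37 (SE, adjusted p = 0.000128), its normalized read count averaging 31.7 ± 22.6 in EV-Dox and 155 ± 73.6 in EV-Veh. CXorf21 changed by -2.14 ± 0.43 (adjusted p = 0.00178), averaging 92.5 ± 55.8 in EV-Dox and 376 ± 183 in EV-Veh. FUT7 changed by -1.90 ± 0.42 (adjusted p = 0.00369), averaging 101 ± 68.4 in EV-Dox and 336 ± 182 in EV-Veh. NFE2 changed by -1.74 ± 0.47 (adjusted p = 0.0105) and PTPRCAP by -1.49 ± 0.47 (adjusted p = 0.0208), both lower in EV-Dox. GAPT did not pass, with a difference of -0.76 and a 95% interval of -1.59 to 0.073 (adjusted p = 0.149).

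These EV-line calls depended on the scaling and on single libraries. With the expressed-gene scaling 5.75% of all tested genes were called lower and 44.0% higher, and the genes called lower were NFE2, TIFAB and CXorf21. Their differences there were -0.45 for NFE2 (limma adjusted p = 0.0284), -1.11 for TIFAB (adjusted p = 0.0417) and -0.86 for CXorf21 (adjusted p = 0.0226). GAPT was instead called higher in EV-Dox, at 0.53 (adjusted p = 0.0347), while PTPRCAP at -0.20 and FUT7 at -0.63 did not pass. With libraries set to equal totals, where 8.13% of all tested genes were called lower and 35.5% higher, NFE2, TIFAB, FUT7 and CXorf21 were called lower and GAPT, at 0.37, did not pass (adjusted p = 0.102). Without EV-Veh replicate 2, the library highest for each of the 6 genes, TIFAB and CXorf21 stayed called and NFE2 (-1.33, adjusted p = 0.0987), PTPRCAP (-1.09, adjusted p = 0.163) and FUT7 (-1.49, adjusted p = 0.0544) did not. Without EV-Dox replicate 3 the PTPRCAP difference was -0.79 (adjusted p = 0.191), and without EV-Dox replicate 1 GAPT passed at -1.10 (adjusted p = 0.0321).

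**Figure D4:**
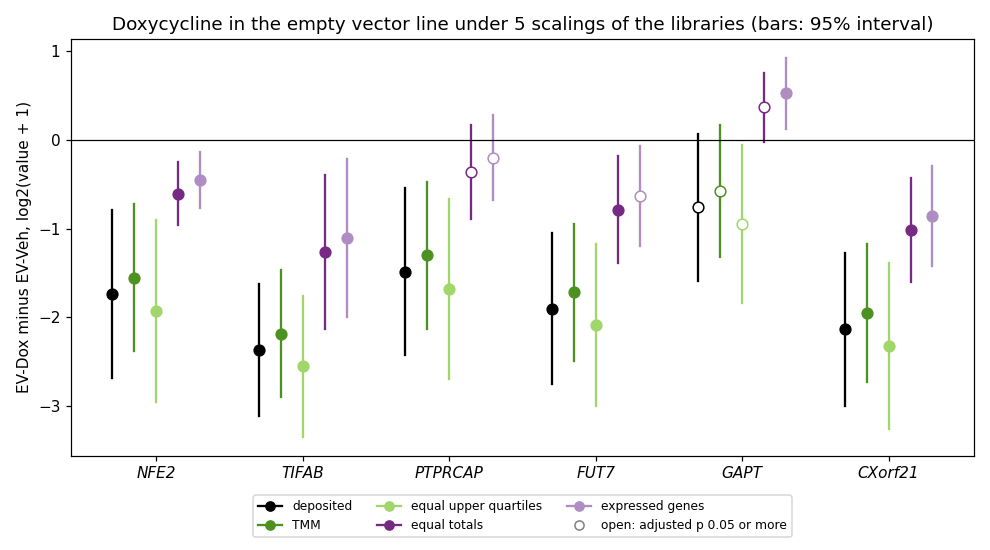
EV-Dox minus EV-Veh for each gene on the log2(value + 1) scale under 5 scalings of the libraries, with 95% intervals, filled where limma's adjusted p was under 0.05. TIFAB and CXorf21 stay below 0 and called under each scaling, while GAPT is -0.76 with the deposited scaling and 0.53 with the expressed-gene scaling.

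Ratios of reads within a library do not depend on its scaling. For each read of NFE2 there were 0.570 ± 0.0865 reads of GAPT in TFEB-Dox, 0.341 ± 0.0997 in TFEB-Veh, 0.657 ± 0.0478 in EV-Dox and 0.335 ± 0.0409 in EV-Veh (SD, n = 3 each). GAPT to NFE2 ratios in EV-Dox, 0.616 to 0.710, did not overlap those in EV-Veh, 0.288 to 0.367. TIFAB gave 0.182 reads per NFE2 read in TFEB-Dox, 0.116 in TFEB-Veh, 0.0841 in EV-Dox and 0.128 in EV-Veh. Its TFEB-Dox ratios, 0.111 to 0.221, overlapped those of TFEB-Veh and EV-Veh. FUT7 ratios of at least 0.356 in TFEB-Dox and PTPRCAP ratios of 0.700 to 0.867 lay above those of all 9 control libraries, which reached 0.300 for FUT7 and 0.697 for PTPRCAP. The PTPRCAP ratios in TFEB-Dox rested on 39 to 50 reads of PTPRCAP and 45 to 70 of NFE2. A ratio to NFE2 rises in TFEB-Dox for any gene that fell less than NFE2. The share of all genes with ratios that did not overlap was not computed, so nothing is read from it. CXorf21 ratios were 0.250 to 0.686 in TFEB-Dox and overlapped those of each control group, which reached 0.352.

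Between the vehicle groups, TFEB-Veh against EV-Veh, 0 of 6 genes were called by limma in either direction, as were 0% of all tested genes. The differences were all below 0, from -0.84 for CXorf21 to -0.59 for GAPT and NFE2, with an adjusted p of 0.452 for each and unadjusted p of at least 0.0559. Of all tested genes 1754 had an unadjusted p under 0.05, and edgeR and DESeq2 called 0 genes. For NFE2 the 95% interval of the difference ran from -1.54 to 0.36. Differences within that range, lower levels in TFEB-Veh included, are compatible with these libraries. With the expressed-gene scaling the differences ran from -0.18 for CXorf21 to 0.073 for NFE2, and 3 of the 6 were below 0.

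In the 3 control groups the spread of these genes between replicates was smaller in RPM than on the deposited scale. The SD of the normalized read counts was 5.51 to 52.2% of the mean in TFEB-Dox, 18.1 to 42.7% in TFEB-Veh, 47.0 to 71.3% in EV-Dox and 39.9 to 54.3% in EV-Veh over the 6 genes. In RPM it was 9.65 to 46.1% in TFEB-Dox, 11.2 to 19.4% in TFEB-Veh, 7.23 to 38.8% in EV-Dox and 0.728 to 14.7% in EV-Veh. EV-Veh replicate 2 was the highest library for 6 of 6 genes on the deposited scale and for 3 of 6 in RPM. EV-Dox replicate 3 was the lowest control library for 5 of 6, the exception being TIFAB. Without EV-Dox replicate 3 the log2 differences of TFEB-Dox minus EV-Dox were larger, at -2.77 for NFE2, -2.91 for GAPT, -2.61 for PTPRCAP, -2.20 for FUT7, -1.95 for CXorf21 and -1.41 for TIFAB. Without EV-Dox replicate 1 they were smaller, at -1.99 for NFE2, -2.20 for GAPT, -1.43 for PTPRCAP, -0.99 for FUT7, -0.92 for CXorf21 and -0.63 for TIFAB. Without EV-Veh replicate 2 those of TFEB-Dox minus EV-Veh were smaller, from -3.67 for NFE2 to -2.996 for GAPT.

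Levels can be compared between the genes only per length, here per kilobase of GENCODE 29 exons on the normalized read count. In TFEB-Dox PTPRCAP had the highest level, 39.4 ± 2.17 per kilobase, followed by NFE2 with 27.2 ± 4.35, CXorf21 with 17.8 ± 9.27, GAPT with 11.5 ± 0.849, FUT7 with 11.2 ± 3.50 and TIFAB with 2.14 ± 0.957 (SD, n = 3 each). CXorf21 libraries ran from 9.60 to 27.8 and overlapped those of NFE2, GAPT and FUT7, and GAPT overlapped FUT7. CD3E, a marker of T cells, had 6.27 ± 0.852 per kilobase in the same libraries. TIFAB in TFEB-Dox was thus no higher per kilobase than this marker of another lineage. In EV-Veh NFE2 led with 505 ± 270 per kilobase and TIFAB was again lowest, with 26.2 ± 12.4.

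Among themselves the 6 profiles over the 12 libraries were most alike for PTPRCAP and FUT7, with a root mean square difference of 0.271 on the log2(value + 1) scale after centring each gene. TIFAB and GAPT were least alike, at 0.773. Outside the 6, neighbours were sought only among tested genes above a floor set by each gene's own mean. That left 5767 candidates for NFE2, the fewest, and 13621 for TIFAB, the most. Of those candidates, the genes nearest to NFE2 were MLC1, a membrane protein gene, at 0.460 and the histone gene HIST1H4L at 0.465. TIFAB was nearest to MYB, the progenitor transcription factor, at 0.395 and to the serpin gene SERPINB10 at 0.417. PTPRCAP was nearest to CIDEB at 0.243 and SAPCD2 at 0.254, and FUT7 to UHRF1, which maintains DNA methylation, at 0.237 and to CIDEB at 0.264. GAPT was nearest to MNDA, a nuclear antigen gene of myeloid cells, at 0.371 and to the polysialyltransferase gene ST8SIA4 at 0.390. CXorf21 was nearest to UHRF1 at 0.262 and to RASGRP2 at 0.279. The 12 libraries share their scaling in these measures, and the file types the UHRF1 row as a processed transcript.

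With the deposited scaling most pathway partners of these genes were not lowered with them. Of 77 genes in 7 lists of their pathways, 71 were tested in TFEB-Dox against TFEB-Veh, and 20 were called higher and 1 lower by limma, where 17.4% of all tested genes were called higher and 4.66% lower. With the expressed-gene scaling 20 were called higher and 22 lower, against 3324 higher and 4789 lower of 23128 tested genes, so that how many partners moved down depended on the scaling. With the deposited scaling the count called was 11 without TFEB-Dox replicate 2 and 12 without TFEB-Veh replicate 1. Of the partners and relatives of NFE2, 7 of 8 rose and none fell, with a median difference of 1.74. MAFF, a small MAF protein gene, had normalized read counts of 1029, 1453 and 1016 in TFEB-Dox, against 31.0, 28.9 and 39.7 in TFEB-Veh. MAFF differed by 5.08 ± 0.32 (limma adjusted p = 4.00e-17), and the groups were far apart. MAFG, the small MAF partner, rose by 2.42 ± 0.51 (adjusted p = 0.00027) and NFE2L1, a relative of NFE2, by 1.89 ± 0.54 (adjusted p = 0.00752). With the expressed-gene scaling 6 of the 8 were called higher and 1 lower. Genes known to lie under NF-E2 in red cells and platelets gave 1 call higher among 5 tested, FECH of heme synthesis at 1.51 (adjusted p = 0.0163), and a median of -0.37. Without TFEB-Dox replicate 2 and without TFEB-Veh replicate 1, neither NFE2L1 (adjusted p = 0.0670 and 0.0571) nor FECH (adjusted p = 0.0810 and 0.0969) passed. HBB, HBG1 and HBG2 were too low to be tested.

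For CXorf21 the direct partner moved the opposite way. SLC15A4 had normalized read counts of 3926, 5232 and 4067 in TFEB-Dox, against 154, 272 and 324 in TFEB-Veh, 204, 172 and 90.6 in EV-Dox and 301, 546 and 293 in EV-Veh. All 3 TFEB-Dox libraries lay far above the 9 controls, and SLC15A4 rose by 4.19 ± 0.47 against TFEB-Veh (limma adjusted p = 1.51e-09) and by 4.88 against EV-Dox (adjusted p = 2.47e-11), where 27.2% of all tested genes were called higher. In the endosomal Toll-like receptor list 4 of 13 tested genes rose and none fell, with a median of 0.71, and with the expressed-gene scaling 3 were called higher and 3 lower. They included IRAK1, the receptor-proximal kinase, at 2.22 ± 0.59 (adjusted p = 0.00400) and CHUK, a kinase of the NF-kB pathway, at 2.11 ± 0.43 (adjusted p = 0.000163). TLR9 was listed at 0 in each library. For TIFAB, its relative TIFA differed by -0.46 (adjusted p = 0.496) and was called lower at -1.21 with the expressed-gene scaling. In the TIFA and TRAF6 list 2 of 11 genes rose, MAP3K7 at 1.44 (adjusted p = 0.0329) and USP15 at 1.43 (adjusted p = 0.0406), both signalling enzymes, and the median was 0.88. Both calls were near the threshold. Leaving out 1 library at a time kept that of MAP3K7 in 7 and that of USP15 in 5 of 12 cases, with adjusted p up to 0.171 and 0.207 without TFEB-Veh replicate 1. MAP3K7 was lost without TFEB-Dox replicate 2 or 3 or any TFEB-Veh library, and USP15 without any TFEB-Dox library, TFEB-Veh replicate 1 or 2, EV-Dox replicate 2 or EV-Veh replicate 1. Of the 11 genes, 3 were called higher and 3 lower with the expressed-gene scaling.

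PTPRC, which encodes the CD45 to which the PTPRCAP protein binds, had normalized read counts of 258, 313 and 257 in TFEB-Dox, against 494, 571 and 692 in TFEB-Veh. Those groups did not overlap, yet PTPRC did not pass at -1.08 ± 0.48 (limma adjusted p = 0.112), and with the expressed-gene scaling it was called lower at -1.82. It passed against TFEB-Veh without EV-Dox replicate 3 (adjusted p = 0.0343), and with all libraries it was called lower than EV-Dox at -1.57 (adjusted p = 0.0106) and than EV-Veh at -1.70 (adjusted p = 0.00799). In that list 1 of 8 genes rose, PAG1, a membrane adaptor of CSK, at 3.16 ± 0.46 (adjusted p = 6.05e-07), and the median was -0.12. For GAPT, GRB2 differed by 1.39 ± 0.54 and did not pass (adjusted p = 0.0571), and with the expressed-gene scaling was called higher at 0.64. With the replicate number as a block GRB2 passed (adjusted p = 0.0352), as it did without EV-Dox replicate 1 or 3 or EV-Veh replicate 2, with adjusted p down to 0.00858 without EV-Dox replicate 3. Among 12 tested membrane adaptors and GRB2 partners 2 rose, GAB2 at 2.04 ± 0.52 (adjusted p = 0.00290) and SOS2 at 1.27 ± 0.48 (adjusted p = 0.0495), with a median of 0.29. The SOS2 call was kept in 3 of 12 cases with 1 library left out. It was lost without any TFEB-Dox or TFEB-Veh library, EV-Dox replicate 2 or EV-Veh replicate 1 or 3, with an adjusted p of 0.207 without TFEB-Dox replicate 2.

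In the selectin-ligand list of FUT7, 1 gene was called lower than in TFEB-Veh. The gene, GCNT1, which builds the branched glycan that FUT7 decorates, had normalized read counts of 89.1, 104 and 108 in TFEB-Dox, against 270.3, 518 and 441 in TFEB-Veh. The groups did not overlap, and GCNT1 fell by 1.97 ± 0.43 (limma adjusted p = 0.00042). Against EV-Dox, at 253, 164 and 116, it did not pass, with a difference of -0.75 (adjusted p = 0.176). ST3GAL6 rose by 1.96 ± 0.48 (adjusted p = 0.00181) and B4GALT1 by 1.83 ± 0.51 (adjusted p = 0.00655, or 0.0537 without TFEB-Dox replicate 2), a sialyltransferase and a galactosyltransferase gene of the same glycans. Of 14 tested genes 3 rose and 1 fell, with a median of -0.27. SELPLG, the main P-selectin ligand gene, differed by -1.14 ± 0.48 and did not pass (adjusted p = 0.0869), and with the expressed-gene scaling was 1 of 6 of the 14 called lower, at -1.89. With the replicate number as a block SELPLG passed (adjusted p = 0.0302), as it did without EV-Dox replicate 1 (adjusted p = 0.0391) or EV-Dox replicate 3 (adjusted p = 0.0128).

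**Figure D5:**
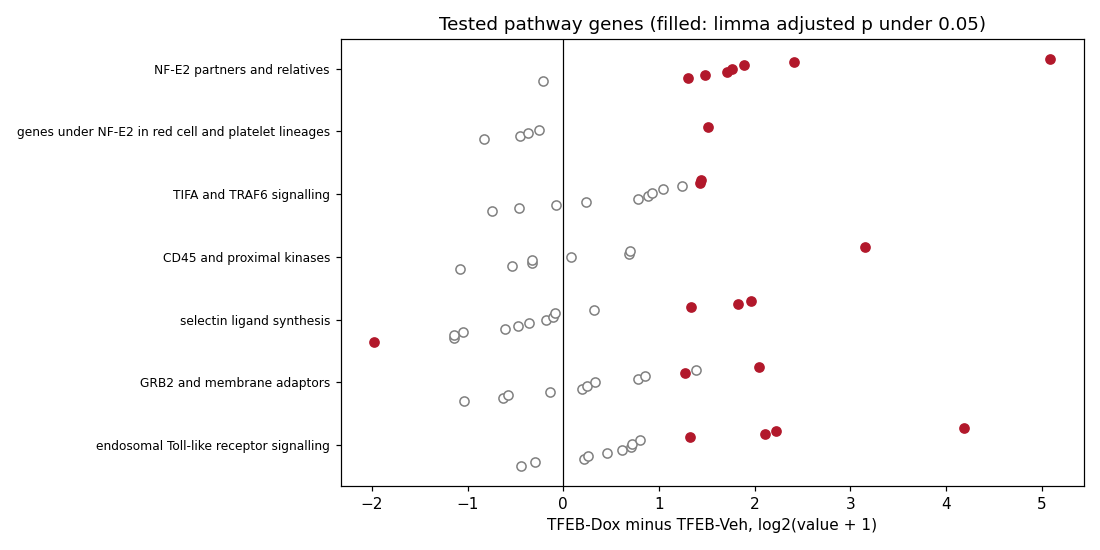
TFEB-Dox minus TFEB-Veh on the log2(value + 1) scale for the 71 tested genes of the 7 pathway lists, 1 row per list, filled where limma's adjusted p was under 0.05; height within a row only separates the points. MAFF at 5.08, SLC15A4 at 4.19 and PAG1 at 3.16 lie farthest to the right, and GCNT1 at -1.97 is the filled point left of 0.

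The 6 genes were grouped as leukocyte genes, and leukocyte markers went both ways. Only the pan-leukocyte list had a median above 0 in TFEB-Dox against TFEB-Veh. Medians were -2.44 for promyelocyte, -1.68 for monocyte, -0.91 for neutrophil, -0.69 for B-cell and -0.34 for T-cell markers. Of 13 pan-leukocyte markers 8 rose and 1 fell in TFEB-Dox against TFEB-Veh, with a median of 1.60, and their summed normalized read counts were 59438 to 81626 in TFEB-Dox and 15334 to 26863 in TFEB-Veh. In RPM the sums were 3488 to 3878 in TFEB-Dox and 2044 to 2400 in TFEB-Veh. With the expressed-gene scaling 8 were called higher and 3 lower. CD53, a leukocyte tetraspanin gene, rose by 2.55 ± 0.47 (limma adjusted p = 3.78e-05), and the marker that fell was CORO1A, named after its value was seen. Of 5 promyelocyte markers 3 fell in TFEB-Dox against TFEB-Veh, and MPO, the peroxidase of the granules, had 5736, 6504 and 4571 in TFEB-Dox, against 42625, 81792 and 65092 in TFEB-Veh, a log2 difference of -3.46 ± 0.62 (adjusted p = 2.35e-05). Against EV-Dox, at 24774, 15361 and 3796, MPO did not pass (-1.03, adjusted p = 0.198). In that comparison 1 of the 5 markers rose and 0 fell. The gene was ELANE, the neutrophil elastase gene, named after its value was seen, at 2.18 (adjusted p = 0.00518). In EV-Dox against EV-Veh 5 of 5 were called lower. Summed promyelocyte markers were 415 to 600.0 RPM in TFEB-Dox, 5944 to 8229 in TFEB-Veh, 1069.5 to 2782 in EV-Dox and 6065 to 9391 in EV-Veh. In TFEB-Dox against TFEB-Veh 3 of 4 monocyte and 1 of 5 neutrophil markers fell, where 4.66% of all tested genes were called lower. Against EV-Dox 1 of 4 monocyte and 3 of 5 neutrophil markers fell, where 5.37% of all tested genes were called lower. Against TFEB-Veh, T-cell markers gave 1 call higher of 5 (TRAC, named after its value was seen), B-cell markers 1 lower of 4 and red-cell markers 1 lower of 3 tested. Megakaryocyte markers, whose lineage needs NFE2, gave 0 calls of 2 tested, and PF4 averaged 6.52 in TFEB-Dox and 5.71 in TFEB-Veh, too low to be tested. CD3E was low in each group, with means of 17.8 in TFEB-Dox, 20.5 in TFEB-Veh, 23.0 in EV-Dox and 17.2 in EV-Veh. The part of these marker shifts in the values of the 6 genes was not tested.

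The spans of some of the genes, introns included, overlap that of another gene in GENCODE 29. Whether the counting used strand is not stated. C9orf139, on the strand opposite to FUT7, averaged 18.9 in TFEB-Dox, 61.1 in TFEB-Veh, 57.8 in EV-Dox and 98.2 in EV-Veh. Whether the exons of FUT7 and C9orf139 overlap was not checked. Where they do, their reads cannot be told apart if strand was not used. AL807752.6, a protein-coding gene on the strand of FUT7, also overlaps its span and has no value of its own in the data. CORO1B, which overlaps PTPRCAP on the same strand, ran the other way, with 489 in TFEB-Dox, 102 in TFEB-Veh, 166 in EV-Dox and 129 in EV-Veh. The genes that overlap NFE2 and TIFAB stayed at or below 8.90 in each group mean. Among them C5orf20, a protein-coding gene on the strand of TIFAB, was at 0 in each group. Such low values do not show that reads of a shared stretch were counted for TIFAB or NFE2, and this was not checked.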

How the data were processed

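RNA of 12 HL60 samples was sequenced. The labels' protocols name a NucleoSpin kit for the total RNA and NuGEN's Ovation Human FFPE kit for sequencing. STAR 2.5.3a and HTSeq 0.6.1 were used, per the submitters' processing notes. Neither source names a genome build, an annotation or a strand setting. The deposited signal is 1 normalized value per gene and library. In 12 of 12 libraries 100% of values were whole multiples of 1 step (tolerance 0.01), so reads were recovered by dividing by it. In EV-Veh replicate 2 and TFEB-Veh replicate 3 the step lay within 1% of 1, where this cannot be told from rounding.

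Genes with a mean of at least 10 over the 12 samples (23128 of 57820, all 6 genes among them) were fitted by limma 3.58.1 (R 4.3.3) on log2(value + 1). It used 4 group means, a variance trend, two-sided tests and Benjamini-Hochberg adjusted p under 0.05. Alternatives were other scalings, pseudocounts and filters, edgeR 4.0.16 and DESeq2 1.42.0 on recovered reads, and libraries left out. The script was tested on simulated data. Besides the 6 genes, the text names the direct partner and up to 3 called genes per pathway list, the 2 nearest profiles per gene and marker genes. A few genes of that rule are not reported here. Genes, lists and markers were chosen with earlier results of these data known. No replicate pair agreed within sampling noise (chi-square per degree of freedom 8.38 to 26.9). Same-numbered samples deviated together in all 3 pairs of TFEB-Dox with TFEB-Veh (correlations 0.323, 0.129 and 0.182) and of TFEB-Dox with EV-Veh (0.288, 0.338 and 0.368), not in the other group pairs, and a fit with the number as a block was an alternative. A differently numbered pair, TFEB-Dox replicate 2 with TFEB-Veh replicate 3, correlated more than the same-numbered pairs of those groups, at 0.400. The pairing is a hint from the data and is not in the labels. p-values measure the spread between these samples only. Symbols come from the file, and promoters from RefSeq.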

Additional observations from a re-analysis of the deposited data

Results flagged for a closer look

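For the partner genes and the marker named here the effect of doxycycline differed between the TFEB line and the EV line, by limma's interaction term (adjusted p under 0.05, where 35.4% of all tested genes were called). The 6 genes themselves are left out here, since that contrast helped to choose them. Most of the genes listed were named because they were called in TFEB-Dox against TFEB-Veh, which is 1 part of the interaction. Their adjusted p-values are therefore no separate support. Only named genes that passed are listed. Among those that did not were GCNT1 at -0.066 (adjusted p = 0.936), PTPRC, SELPLG, TIFA and MPO. Of the relatives of NFE2, the interaction was 5.07 for MAFF (adjusted p = 7.83e-12), 4.09 for MAFG (adjusted p = 2.36e-05) and 3.37 for NFE2L1 (adjusted p = 0.000664), and it was 2.72 for FECH. Around CXorf21 it was 5.49 for SLC15A4 (adjusted p = 2.16e-08), 4.69 for IRAK1 and 2.96 for CHUK. Around TIFAB it was 2.42 for MAP3K7 and 2.43 for USP15. Around PTPRCAP it was 3.81 for PAG1. Around FUT7 it was 2.95 for ST3GAL6 and 2.67 for B4GALT1. Around GAPT it was 2.65 for GRB2, 3.20 for GAB2 and 2.11 for SOS2. For the leukocyte marker CD53 it was 2.86. With the expressed-gene scaling the interaction was smaller for each of these genes, at 3.46 for SLC15A4, 3.09 for MAFF and 2.06 for MAFG. It no longer passed for MAP3K7 (0.38), USP15 (0.39) and SOS2 (0.076).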

How the results depend on the processing

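In each setting tried the 6 genes had lower means in TFEB-Dox than in each control group, and 4 to 6 of them had TFEB-Dox libraries below all controls. This count was not remade where a setting leaves the values as they are. The 5 genes called lower with doxycycline in the EV line became 3 with the expressed-gene scaling, 3 with only the 2 groups in the fit, and 2 without EV-Dox replicate 3 and EV-Veh replicate 2 together, a setting chosen after seeing the data. Leaving out 1 library at a time gave 2 to 6, with 2 without EV-Veh replicate 2. PTPRCAP was lost under edgeR (adjusted p = 0.0627). GAPT turned to 0.53 with the expressed-gene scaling. The 21 partner genes called became 44 with equal totals, 42 with the expressed-gene scaling, 34 with only the 2 groups in the fit, 34 with edgeR and 38 without those 2 libraries. Leaving out 1 library gave 11 to 31, with 11 without TFEB-Dox replicate 2 and 12 without TFEB-Veh replicate 1. The cause was not tested. All-gene counts of TFEB-Dox against TFEB-Veh ran from 3063 to 5732 higher and 647 to 6674 lower, and those of EV-Dox against EV-Veh from 171 to 10176 higher and 465 to 6971 lower, or 77 to 1635 higher and 377 to 8149 lower with 1 library left out. Genes called lower ran from 356 to 14297 against EV-Dox and from 1600 to 4828 against EV-Veh. Same-numbered deviations correlated by -0.569 to 0.781 over all group pairs, above 0.1 in 12 of 18 same-numbered and 9 of 36 differently numbered pairs, which does not pair EV-Dox with EV-Veh. With the replicate block 5 of the 6 genes were called lower in EV-Dox and 25 partner genes were called, and the calls of GRB2 and SELPLG were the named ones that changed in TFEB-Dox against TFEB-Veh. Depth limits TIFAB most, with 5 reads in 1 TFEB-Dox library.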
